A study of Homo sapiens with 6 samples.

Results

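The planar cell polarity genes described here are 10 symbols of the deposited counts table, namely CELSR1, CELSR2, CELSR3, FZD3, FZD6, VANGL1, VANGL2, PRICKLE1, PRICKLE2 and PRICKLE3, out of 26334 symbols in all. They are the core membrane proteins of the pathway with their PRICKLE partners. They were chosen by symbol with the count difference between ZEB1-KO and WT libraries in view, so their levels and fold changes are given as a description. Counts of calls among them stand beside the share over all genes and support nothing. RNA came from clones of MiaPaCa2, a human cell line from a pancreatic ductal adenocarcinoma, grown in medium with fetal bovine serum. The 3 ZEB1-KO clones carried a CRISPR-Cas9 deletion of ZEB1, a transcription factor best known for silencing epithelial genes, and the 3 WT clones kept the wild-type gene. Per the labels' protocols, WT clones had received the Cas9 and GFP plasmid px458 (pSpCas9-2A-GFP) and ZEB1-KO clones the same backbone with a ZEB1 guide RNA (ZEB1.gRNA-pSpCas9-2A-GFP), both by electroporation, and GFP-positive cells were sorted to found the clones. Each library thus stands for 1 clone. The guide sequence, the extent of the deletion and the culture day are not stated in the labels, and no clone with ZEB1 put back was analysed here. Each library was made with SMART-Seq2 from 2000 lysed cells and was counted without molecular identifiers.

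Planar cell polarity aligns cells and their protrusions within the plane of a tissue. CELSR cadherins bind each other across a cell border, with frizzled receptors and dishevelled proteins gathered on one side and VANGL and PRICKLE proteins on the other. In epithelia the system orients hairs and cilia, and in moving cells the same proteins are known for steering directed migration.

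The depth was 18909305 to 42876693 counts per library, so that 3 counts, taken as the floor, corresponded to a CPM (the count scaled to library size with TMM factors) of 0.0687 to 0.15. Floors and single counts cover counting error only. The targeted gene ZEB1 was at 34.0, 31.2 and 33.6 CPM in WT replicates 1, 2 and 3 and at 3.34, 3.46 and 11.5 CPM in ZEB1-KO replicates 1, 2 and 3. Its transcript was still counted in each ZEB1-KO clone, most in replicate 3. Its log2 fold change of -2.43 (SE 0.49) had an adjusted p of 0.0930 in edgeR's quasi-likelihood test, 0.0137 without ZEB1-KO replicate 3, and 3.3e-05 to 0.278 over all alternatives. The keratins KRT8, KRT18 and KRT19, markers of ductal epithelium, were present in every library, whereas CFTR was at 0 counts in every library and EPCAM and CDH1 had at most 4 counts. The summed level of the 10 epithelial markers on the list was 2188 to 3293 CPM in WT and 4094 to 5318 CPM in ZEB1-KO clones, carried by KRT8 and KRT18. SOX9, also on this list, had the opposite direction, with means of 80.0 CPM ± 39.3 (WT) and 38.1 CPM ± 17.6 (ZEB1-KO; SD, n = 3 each) and overlapping groups. The part of these differences in the results below was not tested. Acinar, islet and fibroblast markers each summed to at most 0.20 CPM. Blood markers summed to 4.54 to 7.81 CPM, carried by LYZ and CD68, with CD3E at 0 counts. Endothelial markers summed to at most 3.14 CPM, led by CDH5 with 59 counts in ZEB1-KO replicate 1. In such bulk libraries, a change in the number of cells that express a gene and a change in its RNA per cell cannot be told apart.

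Promoter windows are shown first for the genes to which the results return. RefSeq windows on GRCh38.p14, reaching from 250 bases before to 50 after a transcript start, were given for 7 of the 10 genes (10 windows), and CELSR1, FZD3 and FZD6 had none. The E-box sequences CAGGTG and CAGGTA, to which ZEB1-type zinc fingers bind, were searched on both strands. They share their first bases but cannot occupy the same position on one strand. One of the 10 windows held a match, a CAGGTG that began 122 bases before a start of VANGL1, and no window held CAGGTA. Among all 35116 windows, 28.1% held either sequence (20.6% CAGGTG and 9.83% CAGGTA). A match is a string of letters and not a measured binding site, and the missing matches say only that these letters are not in these windows. For 1 window per gene, the part before the first annotated exon base of the gene (GENCODE 29) is printed below, 5′ to 3′ on the gene's strand. It is shown for VANGL1, which held the match (capitals mark the E-box), and for CELSR2 and PRICKLE3, whose levels did not overlap between the groups. VANGL1 and PRICKLE3 each had a further window at a more downstream start, which held no match and is not printed.
VANGL1 (GRCh38.p14, chr1:115641720-115641952, plus strand): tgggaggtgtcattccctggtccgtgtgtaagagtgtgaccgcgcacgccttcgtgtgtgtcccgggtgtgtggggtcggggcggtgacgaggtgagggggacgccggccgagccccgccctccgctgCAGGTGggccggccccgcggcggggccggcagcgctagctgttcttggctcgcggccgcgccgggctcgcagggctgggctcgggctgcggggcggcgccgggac
CELSR2 (GRCh38.p14, chr1:109249289-109249538, plus strand): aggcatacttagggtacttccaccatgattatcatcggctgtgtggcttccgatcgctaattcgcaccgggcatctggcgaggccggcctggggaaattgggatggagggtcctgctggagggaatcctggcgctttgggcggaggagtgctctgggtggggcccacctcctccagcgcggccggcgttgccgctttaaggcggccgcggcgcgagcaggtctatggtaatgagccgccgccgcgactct
PRICKLE3 (GRCh38.p14, chrX:49186529-49186623, minus strand): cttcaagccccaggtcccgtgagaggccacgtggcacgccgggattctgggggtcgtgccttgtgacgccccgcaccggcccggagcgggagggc
The windows of these 7 genes had a GC content of 49.0% to 75.7%, against a median of 58.7% over all windows.

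The planar cell polarity genes fell into a measured core and a silent remainder. CELSR1, CELSR2, CELSR3, FZD3, FZD6, VANGL1, PRICKLE1 and PRICKLE3, 8 of the 10, passed the filter on low counts and were counted in all 6 libraries. PRICKLE2 had 0 counts in each library, and VANGL2 had 0 counts in 5 libraries and 3 counts in ZEB1-KO replicate 2, so that neither was detectable at this depth. PRICKLE1 and PRICKLE3 passed the filter only with the ZEB1-KO clones, since 1 WT library for PRICKLE1 and 2 for PRICKLE3 reached its limit of 0.292 CPM. The others reached it in every library.

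**Figure D1:**
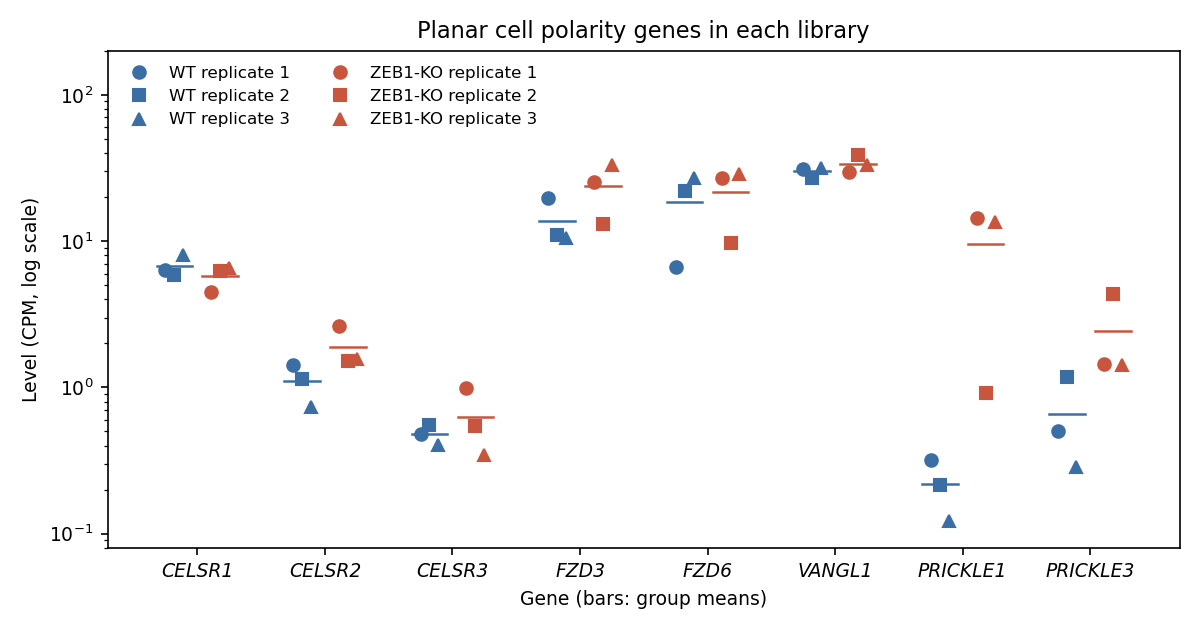
Level of the 8 planar cell polarity genes that passed the filter, in CPM on a log axis, with 1 point per library (3 WT and 3 ZEB1-KO clones, marked by replicate number) and a bar at each group mean. PRICKLE1 lies at 0.122 to 0.321 CPM in WT clones and at 0.914 to 14.4 CPM in ZEB1-KO clones, while VANGL1 stays between 26.9 and 38.8 CPM in the 6 libraries.

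PRICKLE1 had the largest difference of these genes. It encodes a LIM-domain protein that binds VANGL proteins at the membrane and limits the frizzled side of the complex. WT replicates 1, 2 and 3 held 14, 7 and 3 counts of it and ZEB1-KO replicates 1, 2 and 3 held 288, 37 and 433, that is 0.321, 0.216 and 0.122 CPM against 14.4, 0.914 and 13.5 CPM. ZEB1-KO replicates 1 and 3 were high and close to each other, replicate 2 was far lower, and each ZEB1-KO value still lay above each WT value. WT replicate 3 was at the floor of 3 counts, so the fold difference given next rests on few WT counts. Mean levels were 0.219 CPM ± 0.0996 (WT) and 9.59 CPM ± 7.52 (ZEB1-KO; SD, n = 3 each), and the fitted log2 fold change was 5.37 (SE 1.00), a 41.4-fold difference. Leaving out ZEB1-KO replicate 2 gave 5.91, and leaving out replicate 1 of that group gave 4.97. ZEB1-KO replicates 1 and 2 had 3.34 and 3.46 CPM of ZEB1 with 14.4 and 0.914 CPM of PRICKLE1. Replicate 3, with the most ZEB1 RNA of the group, had 13.5 CPM of PRICKLE1. A relation between the remaining ZEB1 RNA and PRICKLE1 was not tested. The first base of the only promoter window of PRICKLE1 already lies in an annotated exon of this gene, so no promoter sequence of it is shown.

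PRICKLE3, a shorter relative of PRICKLE1 with the same LIM domains, was also higher in the ZEB1-KO clones, with a different clone in the lead. It was at 0.504, 1.17 and 0.284 CPM in WT replicates 1, 2 and 3 and at 1.45, 4.37 and 1.43 CPM in ZEB1-KO replicates 1, 2 and 3. The groups did not overlap, although ZEB1-KO replicates 1 and 3 lay only slightly above WT replicate 2. Mean levels were 0.653 CPM ± 0.463 (WT) and 2.42 CPM ± 1.69 (ZEB1-KO; SD, n = 3 each). This is a log2 fold change of 1.88 (SE 0.66), which was 1.12 without ZEB1-KO replicate 2 and 2.60 without WT replicate 2.

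The clone that was lowest in PRICKLE1 among the ZEB1-KO clones was thus the highest in PRICKLE3. On the scale of the deposited TPM values, which are per length and can be compared between genes, WT replicates 1, 2 and 3 had PRICKLE1 to PRICKLE3 ratios of 0.383, 0.111 and 0.258, and ZEB1-KO replicates 1, 2 and 3 had 5.98, 0.126 and 5.67. PRICKLE1 made up 85.7% and 85.0% of the summed TPM of both genes in ZEB1-KO replicates 1 and 3 and 11.2% in replicate 2, against 9.99% to 27.7% in WT clones. ZEB1-KO replicate 2 therefore had a balance of both genes within the WT range, and the mean share of 60.6% ± 42.8 (SD, n = 3) describes none of the ZEB1-KO clones. The WT range is uncertain, because it rests on low counts. WT replicates 1, 2 and 3 held 14, 7 and 3 counts of PRICKLE1 and 22, 38 and 7 of PRICKLE3. PRICKLE4, a further family member outside the 10 genes, had 3 to 9 counts in every library and was not tested. PRICKLE2-AS3, named as antisense to PRICKLE2, had 26 to 78 counts where PRICKLE2 had none.

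**Figure D2:**
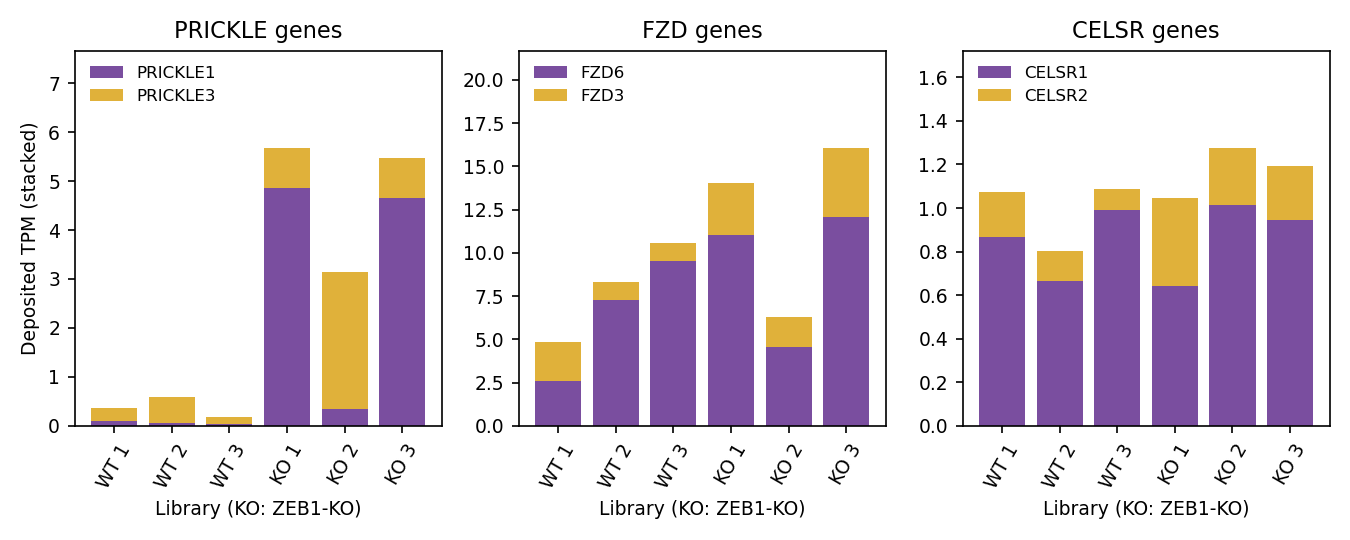
Deposited TPM per library for PRICKLE1 and PRICKLE3, for FZD6 and FZD3 and for CELSR1 and CELSR2, stacked, in 3 WT and 3 ZEB1-KO clones (KO). PRICKLE1 fills most of the bar in ZEB1-KO replicates 1 and 3 (4.86 and 4.66 TPM), PRICKLE3 fills most of it in replicate 2 (2.79 TPM), and FZD6 exceeds FZD3 in each library.

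VANGL1, a multi-pass membrane protein that recruits PRICKLE, was the steadiest of these genes. It was at 31.2, 26.9 and 31.7 CPM in WT replicates 1, 2 and 3 and at 29.6, 38.8 and 32.9 CPM in ZEB1-KO replicates 1, 2 and 3. The groups overlapped, and the highest library had 1.18 times the lowest among WT clones and 1.31 times among ZEB1-KO clones. Mean levels were 29.9 CPM ± 2.64 (WT) and 33.8 CPM ± 4.68 (ZEB1-KO; SD, n = 3 each). This corresponds to a fitted log2 fold change of 0.17 (SE 0.21). Among ZEB1-KO clones the binding partners stood at opposite ends of the spread, since the highest PRICKLE1 value was 15.7 times the lowest. VANGL2, the paralog whose loss disrupts neural tube closure in mice, was at the floor, so VANGL1 supplied nearly all VANGL counts.

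The frizzled receptors FZD3 and FZD6, which carry planar polarity signals in neurons and skin, spread widely between clones of the same group. FZD3 was at 19.8, 11.04 and 10.5 CPM in WT replicates 1, 2 and 3 and at 25.2, 13.1 and 33.0 CPM in ZEB1-KO replicates 1, 2 and 3. WT replicate 1 lay above ZEB1-KO replicate 2, so the groups overlapped. Mean FZD3 levels were 13.8 CPM ± 5.20 (WT) and 23.8 CPM ± 10.1 (ZEB1-KO; SD, n = 3 each). The log2 fold change of 0.78 (SE 0.40) ranged from 0.47 without ZEB1-KO replicate 3 to 1.16 without WT replicate 1.

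FZD6 was at 6.62, 22.1 and 26.8 CPM in WT replicates 1, 2 and 3 and at 26.8, 9.73 and 28.7 CPM in ZEB1-KO replicates 1, 2 and 3. One clone of each group stood low, WT replicate 1 and ZEB1-KO replicate 2, and the other clones of both groups lay close together. Mean FZD6 levels were 18.5 CPM ± 10.5 (WT) and 21.7 CPM ± 10.4 (ZEB1-KO; SD, n = 3 each). The log2 fold change was 0.23 (SE 0.55) and ran from -0.15 to 0.61 as single libraries were left out, turning negative without WT replicate 1 (-0.15) or ZEB1-KO replicate 3 (-0.019). In deposited TPM, FZD6 exceeded FZD3 by a factor of 1.17, 7.0 and 8.95 in WT replicates 1, 2 and 3. That factor was 3.73, 2.61 and 3.05 in ZEB1-KO replicates 1, 2 and 3. All 6 libraries held more FZD6 than FZD3 per length. The ZEB1-KO clones had similar ratios, whereas WT replicate 1, with the highest FZD3 and the lowest FZD6 of its group, stood apart from the other WT clones.

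Among the CELSR cadherins, which join the complexes of neighbouring cells, CELSR1 was the most abundant. It was at 6.37, 5.83 and 8.06 CPM in WT replicates 1, 2 and 3 and at 4.49, 6.25 and 6.51 CPM in ZEB1-KO replicates 1, 2 and 3. The groups overlapped, and CELSR1 was the only tested gene of the 10 with a negative log2 fold change, -0.23 (SE 0.29), from means of 6.75 CPM ± 1.17 (WT) and 5.75 CPM ± 1.10 (ZEB1-KO; SD, n = 3 each). CELSR2 was at 1.42, 1.14 and 0.729 CPM in WT replicates 1, 2 and 3 and at 2.64, 1.51 and 1.56 CPM in ZEB1-KO replicates 1, 2 and 3. Its groups did not overlap, but ZEB1-KO replicate 2 lay only just above WT replicate 1, from 61 and 62 counts respectively. Mean CELSR2 levels were 1.10 CPM ± 0.348 (WT) and 1.90 CPM ± 0.643 (ZEB1-KO; SD, n = 3 each). The log2 fold change was 0.77 (SE 0.42), and it was 0.47 without ZEB1-KO replicate 1. Of the summed TPM of CELSR1 and CELSR2, CELSR2 made up 19.4%, 17.5% and 8.90% in WT replicates 1, 2 and 3. The same share was 38.9%, 20.7% and 20.5% in ZEB1-KO replicates 1, 2 and 3. CELSR1 thus kept the larger share in each library, and ZEB1-KO replicate 1, with the lowest CELSR1 and the highest CELSR2, had the most even split.

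CELSR3, known for guiding axons, was the lowest of the measured cadherins in counts. Its counts were 21, 18 and 10 in WT replicates 1, 2 and 3, against 20, 22 and 11 in ZEB1-KO replicates 1, 2 and 3. The groups overlapped, and the log2 fold change of 0.35 (SE 0.48) was -0.11 without ZEB1-KO replicate 1. It was not listed in the deposited TPM table, so its level per length was not compared. Its antisense gene CELSR3-AS1 had at most 2 counts.

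The order of levels per length differed between the groups mainly through PRICKLE1. In WT clones, FZD6 (6.47 TPM ± 3.53) and VANGL1 (4.85 TPM ± 0.787) led and overlapped each other, followed by FZD3 (1.44 TPM ± 0.675), CELSR1 (0.840 TPM ± 0.165) and PRICKLE3 (0.311 TPM ± 0.198), which did not overlap their neighbours above (SD, n = 3 each). CELSR2 (0.149 TPM ± 0.0564) overlapped PRICKLE3, and PRICKLE1 (0.0658 TPM ± 0.0346) overlapped CELSR2 at the bottom of the order. In ZEB1-KO clones, FZD6 (9.24 TPM ± 4.08) and VANGL1 (6.62 TPM ± 1.39) again led and overlapped. PRICKLE1 (3.29 TPM ± 2.55) came next, below VANGL1 in each clone, and overlapped FZD3 (2.89 TPM ± 1.11), which overlapped PRICKLE3 (1.47 TPM ± 1.14), which in turn overlapped CELSR1 (0.866 TPM ± 0.199). CELSR2 (0.305 TPM ± 0.0889) was last and did not overlap CELSR1, but its value of 0.407 TPM in replicate 1 lay above that of PRICKLE1 in replicate 2 (0.351 TPM). The 7 genes with TPM values summed to 11.8, 13.7 and 16.9 TPM in WT replicates 1, 2 and 3 and to 26.2, 18.89 and 28.9 TPM in ZEB1-KO replicates 1, 2 and 3. On the log2(TPM + 1) scale, the median log2 fold change of all deposited genes was itself 0.20. The sums were not adjusted for this shift, and its part in their difference was not tested.

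The spread between clones of the same group also differed among these genes, given here as a description. The biological coefficient of variation fitted by edgeR was 0.70 for PRICKLE1, against 0.42 on the trend at its level. PRICKLE1 was in the fit through its ZEB1-KO clones, and this value rests largely on their 288, 37 and 433 counts. PRICKLE3 (0.56, trend 0.47), FZD6 (0.49, trend 0.34) and FZD3 (0.37, trend 0.34) also lay above the trend. VANGL1 (0.24, trend 0.32), CELSR1 (0.31, trend 0.40), CELSR2 (0.39, trend 0.47) and CELSR3 (0.40, trend 0.47) lay below it. With 3 clones a group these estimates are shrunk towards the trend. ZEB1-KO replicate 2 was the lowest of its group in PRICKLE1, FZD3, FZD6 and CELSR2 and the highest in PRICKLE3 and VANGL1.

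**Figure D3:**
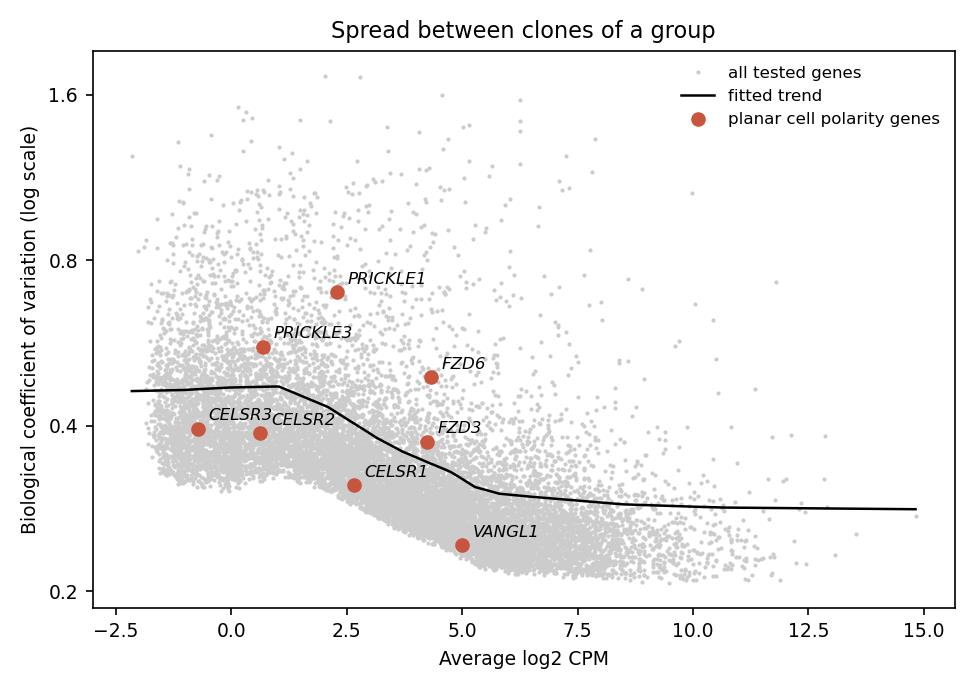
Biological coefficient of variation between clones of a group (log axis) against the average log2 CPM for all 13659 tested genes (grey), the fitted trend (line) and the 8 planar cell polarity genes that passed the filter (red). PRICKLE1, PRICKLE3, FZD6 and FZD3 sit above the trend, and VANGL1, CELSR1, CELSR2 and CELSR3 below it.

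Set against all tested genes, PRICKLE1, PRICKLE3 and CELSR2, 3 of the 8, had every ZEB1-KO value above every WT value, as had 11.9% of all tested genes, and 0 had the reverse (11.7% of all tested genes, or 23.6% in either direction). Of these 3, PRICKLE1 and PRICKLE3 had entered the tested set only with the ZEB1-KO clones, the group where they were high. A positive log2 fold change was found for 7 of the 8, against 49.4% of all tested genes. None of the 8 passed an adjusted p of 0.05 in edgeR's quasi-likelihood test, as 0.176% of all tested genes did (0.117% higher and 0.0586% lower in ZEB1-KO clones), with 2 of them at an unadjusted p below 0.05 (17.7% of all tested genes). DESeq2 called 1 of them, PRICKLE1 (7.12% of its genes), and so did edgeR's likelihood ratio test (4.52%). In the quasi-likelihood test PRICKLE1 was also called without ZEB1-KO replicate 2 or with no filter, and it had entered the tested set through the ZEB1-KO clones. The authors' deposited table listed 7 of the 10 genes and called 1, PRICKLE1, with a log2 fold change of 5.39 in the authors' deposited table, which called 4.75% of its genes. Since the genes were proposed with this difference in view, nothing is read from these counts.

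**Figure D4:**
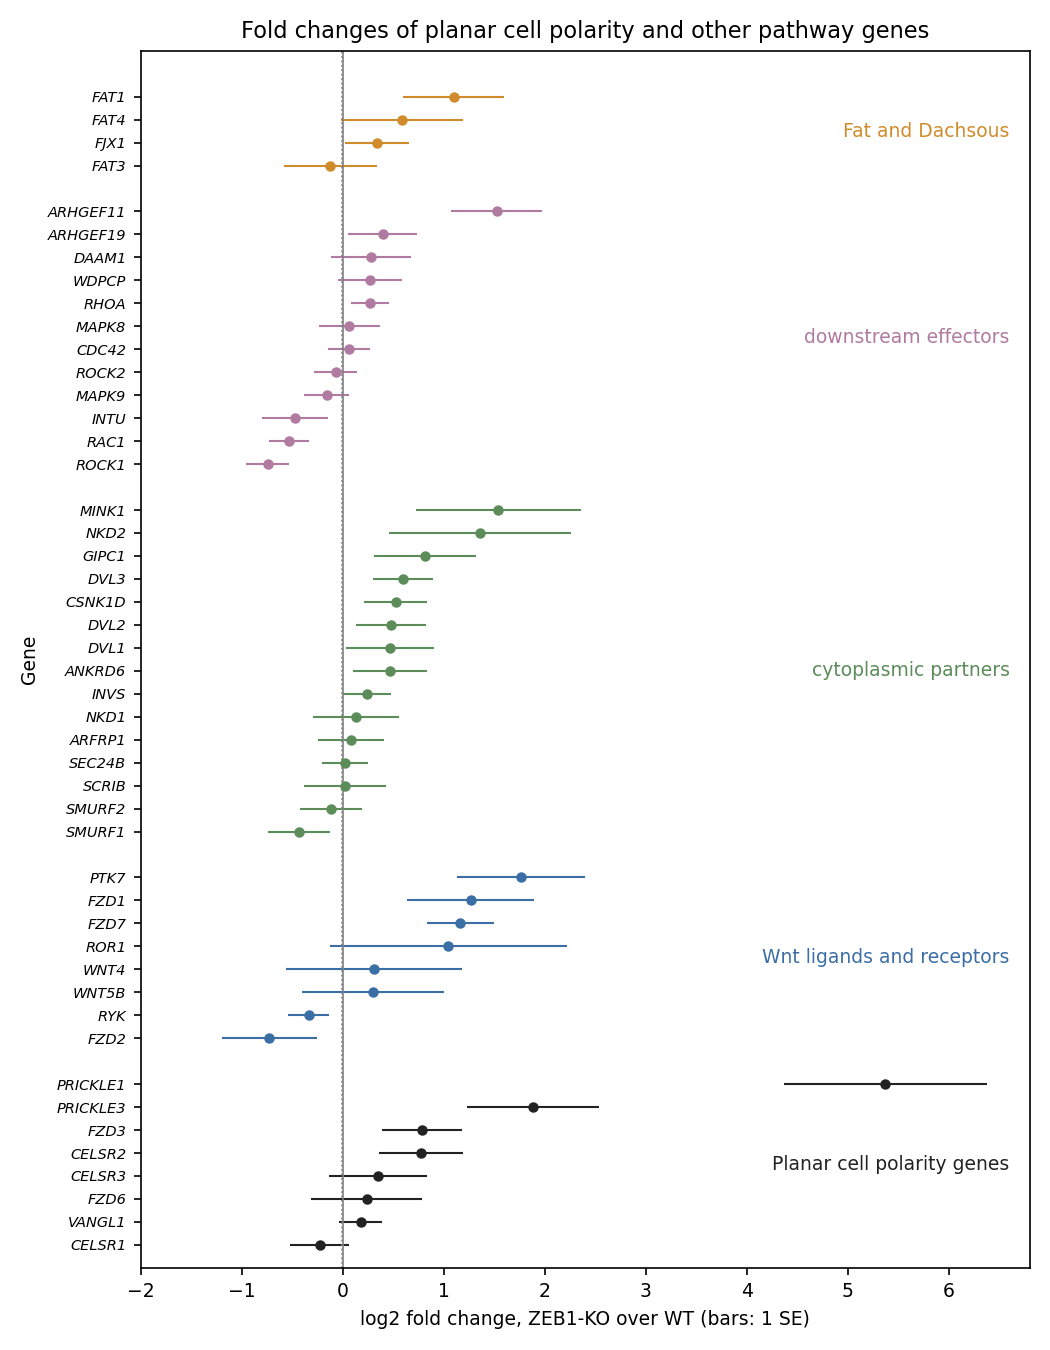
Log2 fold change of ZEB1-KO over WT with 1 SE for the 8 planar cell polarity genes that passed the filter (black) and 39 other pathway genes in 4 groups (coloured), each point a gene, with the median of all tested genes dotted at -0.0082. PRICKLE1 at 5.37 lies apart from the other genes drawn, which run from -0.75 (ROCK1) to 1.88 (PRICKLE3).

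Other genes of the pathway were taken from 4 lists that are not part of the 10 genes. Of their 54 genes, 39 were tested in edgeR's quasi-likelihood test over all genes. None passed an adjusted p of 0.05 in either direction, and 5 of the 39 had an unadjusted p below 0.05, a smaller share than the 17.7% of all tested genes. DESeq2 called 2 of the 36 it tested, FZD7 and ARHGEF11, both higher, which is also a smaller share than its 7.12% over all genes. Every ZEB1-KO value lay above every WT value for 6 of the 39, against 11.9% of all tested genes. PTK7, among these, had entered the tested set only with the ZEB1-KO clones, the group where it was high. For 3 of the 39 every ZEB1-KO value lay below, against 11.7% of all tested genes. In either direction the share over all tested genes was 23.6%, so groups without overlap were not particular to these lists. The log2 fold change was positive for 29 of the 39, against 49.4% of all tested genes. Its median was 0.28 against -0.0082 over all tested genes, and it was 0.18 without WT replicate 2 or without ZEB1-KO replicate 2. In edgeR's quasi-likelihood fit this list median lay 0.29 above that of all genes. On log2(TPM + 1) in limma fits it lay 0.096 above with a filter on mean TPM and 0.12 above without one. With 0.1 added to TPM in place of 1 and the same filter, it lay 0.22 above. In the authors' deposited table, 0 of the 32 listed genes were called, against 4.75% of all its genes.

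Wnt ligands and receptors outside the beta-catenin branch were mostly receptors in these cells. The ligands WNT5A, WNT7A and WNT9B were at 0 counts in every library, WNT11 had at most 5 counts, and WNT4 and WNT5B had at most 25 counts. The co-receptor ROR2 had at most 4 counts. Among the 8 tested genes, 6 had positive log2 fold changes (49.4% of all tested genes), 2 had an unadjusted p below 0.05 (17.7% of all tested genes), and the list median was 0.68. FZD7, a frizzled receptor of both Wnt branches, was at 4.15, 5.61 and 8.35 CPM in WT replicates 1, 2 and 3 and at 14.4, 10.2 and 15.9 CPM in ZEB1-KO replicates 1, 2 and 3. These groups did not overlap, and the log2 fold change of 1.16 (SE 0.34) had an adjusted p of 0.140, between 0.0256 (DESeq2) and 0.325 over the alternatives. PTK7, a pseudokinase co-receptor of the polarity pathway, averaged 0.479 CPM ± 0.303 (WT) and 1.59 CPM ± 1.05 (ZEB1-KO; SD, n = 3 each). The groups did not overlap, but ZEB1-KO replicate 3 (0.840 CPM, 27 counts) lay only just above WT replicate 3 (0.810 CPM, 20 counts). PTK7 entered the tested set only with the ZEB1-KO clones, since WT replicate 2, with 7 counts, lay below the filter's limit of 0.292 CPM. Its log2 fold change of 1.76 (SE 0.63, edgeR adjusted p = 0.203) was 1.06 without ZEB1-KO replicate 2. For FZD1 the log2 fold change was 1.26 (edgeR adjusted p = 0.331), or 0.78 without ZEB1-KO replicate 2, and the groups overlapped. The receptor ROR1 varied between 1.05 and 68.8 CPM among the WT clones alone.

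The cytoplasmic partners included the dishevelled proteins, which relay frizzled signals. Among 15 tested genes, 13 had positive log2 fold changes (49.4% of all tested genes), with a list median of 0.46. Without ZEB1-KO replicate 2 the list median was 0.11 and 9 of 15 were positive, and without WT replicate 1 it was 0.31. In edgeR's quasi-likelihood test 0 of the 15 had an unadjusted p below 0.05, against 17.7% of all tested genes. DVL3 averaged 17.7 CPM ± 5.50 (WT) and 26.7 CPM ± 5.99 (ZEB1-KO; SD, n = 3 each). Its log2 fold change was 0.59 (edgeR adjusted p = 0.336). DVL1 stood at 0.47 and DVL2 at 0.48 on the same log2 scale, and all 3 genes had overlapping groups. CSNK1D, a casein kinase, and MINK1, a kinase that phosphorylates PRICKLE, had log2 fold changes of 0.52 and 1.54. Both rested on ZEB1-KO replicate 2, without which they were 0.11 and 0.015. That library held 1906 counts of CSNK1D and 86 of MINK1, against 497 and 4 in ZEB1-KO replicate 1 and 731 and 14 in ZEB1-KO replicate 3.

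Downstream effectors, which pass the signal to the cytoskeleton, were split. Among 12 tested genes, 7 had positive log2 fold changes (49.4% of all tested genes) and 3 had an unadjusted p below 0.05 (17.7% of all tested genes). The list median was 0.061 and ran from -0.075 to 0.18 as single libraries were left out. ROCK1, a kinase that drives actomyosin contraction, was at 92.1, 91.6 and 77.1 CPM in WT replicates 1, 2 and 3 and at 52.9, 43.0 and 59.6 CPM in ZEB1-KO replicates 1, 2 and 3. No ZEB1-KO value reached a WT value. The log2 fold change of -0.75 (SE 0.21) had an adjusted p of 0.131 in edgeR's test, within 0.0582 to 0.324 over the alternatives. RAC1, a small GTPase of lamellipodia, had a log2 fold change of -0.53 (SE 0.20, edgeR adjusted p = 0.215), and its ZEB1-KO values lay below its WT values in CPM. In deposited TPM its groups overlapped, with 227 TPM in ZEB1-KO replicate 3 above 219 TPM in WT replicate 3. The log2 fold change of RAC1 was -0.26 with limma on log2(TPM + 1). RHOA, the GTPase upstream of ROCK1, had a log2 fold change of 0.27 (edgeR adjusted p = 0.481), with its ZEB1-KO values above its WT values. ARHGEF11, an exchange factor for RHOA that links CELSR1 to contraction during neural tube closure, was at 2.24, 2.87 and 2.55 CPM in WT and at 5.24, 12.6 and 4.2 CPM in ZEB1-KO replicates 1, 2 and 3. Its groups did not overlap, and its log2 fold change of 1.53 (SE 0.45) had an adjusted p of 0.144 in edgeR's test and of 0.0188 with DESeq2, within a range up to 0.338. Without ZEB1-KO replicate 2, which held 509 counts against 105 and 135 in the others of its group, the log2 fold change was 0.88.

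The Fat and Dachsous cadherins form a second polarity system. Positive log2 fold changes were found for 3 of its 4 tested genes (49.4% of all tested genes), out of 7 on the list. In edgeR's quasi-likelihood test 0 of the 4 had an unadjusted p below 0.05 (17.7% of all tested genes). The list median was 0.46, and it was 0.20 without ZEB1-KO replicate 3. FAT1 had the highest mean CPM of the list in both groups. Per length, FJX1 had the higher mean, at 4.21 TPM (WT) and 6.45 TPM (ZEB1-KO) against 2.15 and 5.84 TPM for FAT1, with overlapping values. FAT1 was at 7.90, 40.3 and 21.9 CPM in WT replicates 1, 2 and 3 and at 42.1, 59.3 and 48.8 CPM in ZEB1-KO replicates 1, 2 and 3. Its log2 fold change was 1.10 (SE 0.50, edgeR adjusted p = 0.297). The lowest ZEB1-KO clone lay just above WT replicate 2, and the log2 fold change was 0.70 without WT replicate 1 and 1.77 without WT replicate 2. FAT4 and FJX1, a kinase-like modifier of these cadherins, had log2 fold changes of 0.59 and 0.34, with overlapping groups. FAT4 stood at -0.054 without ZEB1-KO replicate 3 and FJX1 at 0.069 without ZEB1-KO replicate 2. DCHS1 and DCHS2 had at most 5 counts in any library.

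Genes with the pattern most like that of PRICKLE1, by Pearson correlation of log2 CPM over the 6 libraries, were SMPDL3A (r = 0.998), TIGD1 (r = 0.994) and SNORD36A (r = 0.993). SMPDL3A was at 0.932 to 1.19 CPM in WT clones and at 3.89, 1.58 and 4.23 CPM in ZEB1-KO replicates 1, 2 and 3, so that the same clone of the ZEB1-KO group was low. Those most like VANGL1, the gene of the 10 with the highest mean CPM, were ANKRD40 (r = 0.992), CDCA4 (r = 0.991) and CORO1C (r = 0.991). The 6 libraries are shared by all genes compared, and the genes named are the extremes of 13659, so these values describe the libraries only.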

How the data were processed

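Messenger RNA was measured in 6 libraries, 3 WT and 3 ZEB1-KO clones, with groups and replicate numbers from the titles. The tools named per the submitters' processing notes are HTSeq 0.6.1, TopHat2 2.1.0 and edgeR 3.2.2, and the builds GRCh37 and hg19. Counting settings were not given in the sources used here, and without strand, reads of overlapping antisense genes cannot be told apart. Deposited by the authors were raw counts by symbol, TPM values for 11013 of these symbols, and a results table with log2 fold changes, average log2 CPM, a likelihood ratio score and p-values, per the file headers. TPM sums to the same total in each deposited column, and its gene lengths were not given in the sources used here.

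Counts were fitted with edgeR 4.0.16 in R 4.3.3 (filterByExpr with a minimum count of 10 and total of 15, 13659 genes, TMM, glmQLFit and glmQLFTest with the group alone, two-sided, Benjamini-Hochberg over all genes, threshold 0.05). The SE was derived from the F statistic, and log2 CPM used a prior count of 2. The replicates are separate clones, and culture days and batches are not stated. The p-values thus weigh the group difference only against the spread between these clones within a group, which may be partly technical. No library was a copy of another (chi-square per gene of at least 123 for each pair). Alternatives were RLE scaling, library size alone, no filter, 1 CPM in 3 libraries, DESeq2 1.42.0, the likelihood ratio test, limma 3.58.1 on log2 of TPM plus 1 or 0.1, the replicate number as a block, and each library left out. The fits were tested on simulated data.

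The 10 genes and the lists were chosen with earlier results of these data known. Genes named were ZEB1, the 10 genes, every list gene past the threshold and the 3 of smallest p per list, and the 3 most correlated genes for PRICKLE1 and VANGL1, as the tested genes of largest absolute log2 fold change and highest mean CPM; others in the text were chosen after their values were seen. With 1 gene at a time, an exact permutation test could not go below p = 0.1 with 3 against 3. The planned comparison of protein sequences was not made here.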

Additional observations from a re-analysis of the deposited data

How the results depend on the processing

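The calls over all genes depended on the test: 24 in edgeR's quasi-likelihood test, 134 with no filter, 935 with DESeq2, 617 with the likelihood ratio test, and 101, 94 and 80 with limma on TPM (plus 1, plus 0.1, and plus 1 without a filter). They ranged from 5 to 25 when 1 library was left out, with 13, 6 and 5 without WT replicates 1, 2 and 3 and 6 without ZEB1-KO replicate 1. Of the calls, 66.7% were higher in ZEB1-KO clones in the quasi-likelihood test and 81.2%, 80.9% and 78.8% in those limma fits, where the median log2 fold change of all genes was 0.23, 0.27 and 0.20, against 0.14 with library size alone. The list genes had 0 calls except for 2 with DESeq2. The median of the cytoplasmic partners was 0.11 without ZEB1-KO replicate 2, and that of the downstream effectors changed sign (-0.075) without ZEB1-KO replicate 3 and (-0.042) without WT replicate 3. With limma on TPM plus 1 without a filter, list medians were 0.51 (Wnt), 0.34 (cytoplasmic), 0.28 (downstream) and 0.49 (Fat), against 0.20 over all genes. Among the 10 genes, the log2 fold change on the log2(TPM + 1) scale was 1.74 for PRICKLE1, with or without the filter, 0.83 for PRICKLE3 and 0.18 for CELSR2 without it, and 0.38 for VANGL1; with a pseudocount of 0.1 it was 3.75 for PRICKLE1 and 0.43 for VANGL1. Pseudocounts understate low genes. The share of FZD3 in counts, not per length, was 45.5% in WT and 53.1% in ZEB1-KO clones, against 22.9% and 24.5% in TPM. FAT4 ranged from -0.054 (without ZEB1-KO replicate 3) to 1.23 with 1 library left out. CELSR1 turned to 0.018 with limma on all deposited TPM genes and CELSR3 to -0.11 without ZEB1-KO replicate 1. The replicate block gave 20 calls, 0 of them among the list genes or the 10 genes. Deviations of same-numbered WT and ZEB1-KO clones correlated at 0.022, 0.0071 and 0.22. The replicates numbered 3 correlated best with each other, but not every library correlated best with its own number. So few values cannot decide whether the numbers pair the clones.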
